A study of Arabidopsis thaliana with 12 samples.

Results

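The light response of cat2 gox1, an Arabidopsis thaliana line (Columbia-0) that carries the cat2-2 and gox1 mutations, was read from 6 of 12 mRNA libraries: 3 of plants kept in high CO2 and 3 of plants after 3 h of high light, chosen by their sample labels. All plants were raised at 3000 ppm CO2 under an irradiance of 120 µmol m-2 s-1, with 16 h of light and 8 h of darkness, 75% humidity and 21 °C. For the treatment they moved to another chamber at 400 ppm CO2, 1200 µmol m-2 s-1 and 55% humidity. Light, CO2, humidity, chamber and elapsed time thus changed together and cannot be told apart. The term high light covers that whole transfer here. All plants were 3 weeks old. Every library pooled middle-aged leaves of 15 plants per the protocol, while the source label speaks of seedling shoots, and 3 biological repeats of the set-up are described. The other 6 libraries come from cat2 gox2, which carries the same cat2-2 mutation with gox2 in place of gox1 and went through the same conditions. No group has an intact CAT2 or an unmutated background, so a response shared with wild-type leaves cannot be separated from one that needs the mutations.

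Glycolate oxidases sit in peroxisomes and oxidise the glycolate that leaves the chloroplast when Rubisco fixes oxygen in place of CO2. The reaction releases hydrogen peroxide, which catalase 2 breaks down in leaves. High CO2 keeps this photorespiratory flux low, and bright light in ambient air raises it. Hydrogen peroxide is known to act as a signal in leaves, upstream of kinase cascades, transcription factors and enzymes that conjugate or reduce toxic compounds.

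About as many genes fell as rose, but the rises were far steeper. Of 18967 genes tested, 4858 (25.6%) were higher and 5022 (26.5%) lower after high light by edgeR's quasi-likelihood test at an adjusted p of 0.05, 52.1% in all, and the median log2 change of all genes was -0.06. These shares are the background for every list of genes below. At least 2-fold rises numbered 2779 (14.7%) and falls 2179 (11.5%). At least 16-fold, there were 412 rises against 13 falls, and at least 64-fold, 151 rises against 1 fall. The libraries of the 2 conditions did not overlap at 11135 genes (58.7%). Levels are given in CPM, a gene's count brought to a common library total with factors that scale between libraries, and log2 changes as high light minus high CO2 with their standard error (SE).

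In terms of messenger share, the genes that rose at least 2-fold supplied 4.45%, 4.53% and 6.62% of the counts of the high CO2 libraries and 22.5%, 26.3% and 25.5% of those after high light. The genes that fell at least 2-fold went from 24.7%, 24.4% and 21.1% to 10.9%, 9.8% and 8.43%. The 412 genes of the steepest rises took 0.0787% to 0.149% before and 3.92% to 5.02% after. These gene sets were chosen by the same contrast, so the shares describe its size and test nothing. UDP-glycosyltransferases, a list chosen by family, went from 0.108% to 0.175% of counts up to 0.556% to 0.688%, and proteasome genes from 0.25% to 0.318% up to 0.537% to 0.596%.

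**Figure D1:**
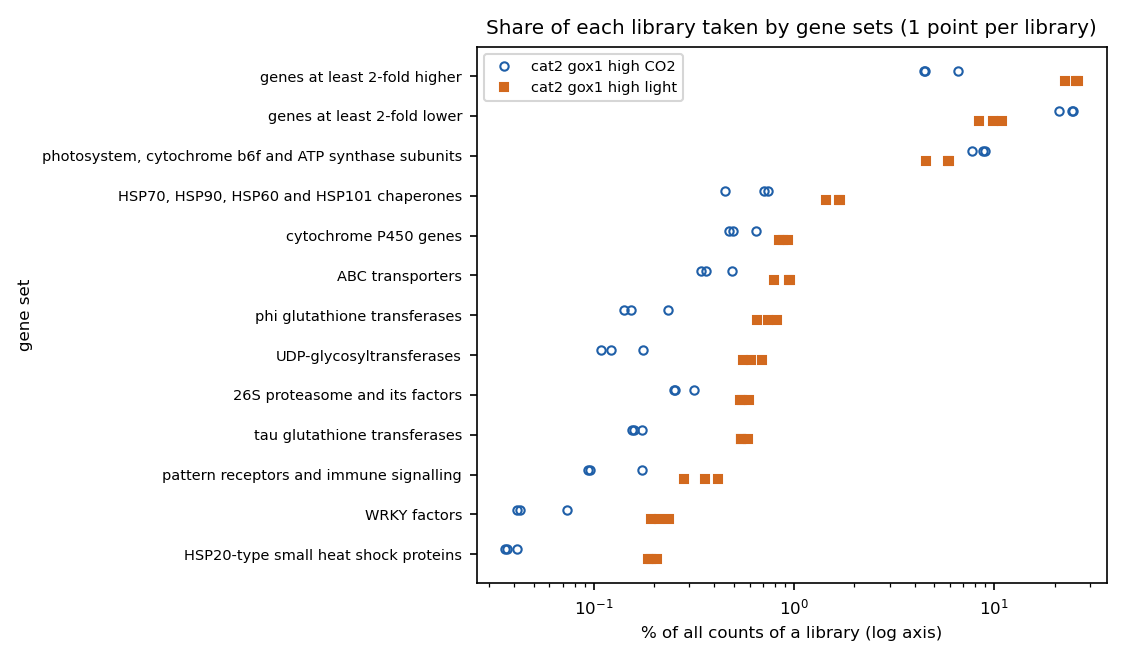
Share of all counts of a library (%, log axis) taken by 13 gene sets, with 1 point for each of the 3 high CO2 and 3 high light libraries of cat2 gox1. The libraries of the conditions do not overlap in any of the sets drawn. The genes at least 2-fold higher pass from 4.45% to 6.62% up to 22.5% to 26.3%. Some lists not drawn do overlap, such as starch genes (0.85% to 1.08% and 0.85% to 1.18%).

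Total counts of the 6 libraries ran from 20330914 to 23266458. Marker sums are in CPM of total counts, without the factors between libraries. Leaf mesophyll markers (5 of 5 detected) summed to 42700 to 58700 CPM under high CO2 and 23500 to 34900 CPM after high light. The sums of guard cell (56.5 to 70.8 against 65.4 to 72.0 CPM) and epidermis markers (645 to 795 against 570 to 753 CPM) overlapped between the conditions. KCS6 carried the epidermis sum, with 402, 385 and 552 CPM in high CO2 and 397, 431 and 549 CPM in high light. ATML1 fell without overlap from 43.8, 44.5 and 41.5 CPM to 28.5, 27.7 and 29.1 CPM, as did PDF1 and PDF2. The lowest high CO2 and the highest high light value of FDH were both 128 CPM. Among guard cell markers KAT1 rose without overlap, and FMA and MYB60 fell without overlap. In such bulk samples fewer cells of a type and less RNA per cell cannot be told apart. Flower markers summed to at most 1.67 CPM and meristem markers to at most 0.295 CPM, with AP1, AP3, CLV3 and WUS at 0. Root markers summed to 9.39 to 12.7 CPM under high CO2 and 79.3 to 253 CPM after high light, but that sum was carried by RHD2, while COBL9, EXPA7 and PHT1;1 stayed under 1 CPM. RHD2, the NADPH oxidase of root hair growth, which makes superoxide at the cell surface, had 0.983, 0.739 and 0.437 CPM in high CO2 and 139, 245 and 62.8 CPM in high light (log2 change 7.71, SE 0.552, adjusted p = 1.45e-06). It was named after its values were seen. Under high CO2 the library of number 3 stood apart: 1820 of its genes lay at least 2-fold from the mean of the other libraries of the group, against 244 and 304 genes for numbers 1 and 2. Where a fitted fold printed for a named gene moved by more than 1.5 times without it, the value without it is given in the same paragraph.

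The 3 genes mutated in either line were read first. GOX1 had 284, 261 and 238 CPM in high CO2 and 150.0, 189.8 and 128 CPM in high light, so all 3 treated libraries lay below the controls (log2 change -0.74, SE 0.152, adjusted p = 0.00189). CAT2 had 95.9, 96.5 and 96.3 CPM in high CO2 and 48.3, 61.8 and 56.6 CPM in high light, again without overlap (log2 change -0.79, SE 0.11, adjusted p = 0.000144). GOX2, the intact neighbour and near-identical copy of GOX1, had 1199, 1179 and 932 CPM in high CO2 and 570.5, 653 and 451 CPM in high light. Its groups did not overlap either, but the difference did not pass (log2 change -0.98, SE 0.825, adjusted p = 0.335). It passed when the cat2 gox1 libraries were fitted alone (log2 -0.98, adjusted p = 0.00698). It also passed without the number 2 high light library of cat2 gox2 (log2 -0.98, adjusted p = 0.000597). The libraries of cat2 gox2 enter the shared spread, and their GOX2 values varied widely after high light (45.4 ± 66.1 CPM). The cause of that variation was not tested. Under high CO2, GOX1 had 261 ± 22.7 CPM in cat2 gox1 against 2062 ± 131 CPM in cat2 gox2. GOX2 had 1103 ± 149 CPM against 16.7 ± 0.203 CPM. The fall of GOX1 was thus read on the low level left in its own mutant. Reads shared by GOX1 and GOX2 may have been assigned to either gene, which leaves their separate levels uncertain. The extent of such sharing was not tested.

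Among the steepest rises were genes of transcription, detoxification and protein folding that were close to silent in high CO2. DREB2C, a transcription factor of the dehydration-responsive element binding family, had 0.103, 0.0462 and 0.119 CPM in high CO2 and 71.5, 79.4 and 84.3 CPM in high light. The high light libraries agreed within a narrow range and lay far above the controls (log2 change 9.67, SE 0.202, adjusted p = 5.33e-10). AT4G01870, annotated as a tolB-like protein, had 6.99, 7.94 and 4.45 CPM in high CO2 and 2321, 3215 and 1040.1 CPM in high light, with number 3 the lowest treated library (log2 change 8.41, SE 0.474, adjusted p = 2.68e-07). AT1G71000, a protein with a DnaJ co-chaperone domain, had 1 count over the high CO2 libraries and 4365 after high light (4204-fold, 95% interval 754 to 166110.0). Its change, like others from 0 to 3 counts, is a counting ratio and not a fitted one.

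Genes with the deepest falls, among those that averaged at least 5 CPM without overlap, had varied annotations. AT1G13650, an uncharacterised protein, had 66.4, 72.6 and 22.7 CPM in high CO2 and 3.65, 1.8 and 0.337 CPM in high light, and its number 3 libraries were the lowest of both groups (log2 change -4.80, SE 0.8, adjusted p = 0.000504). UMAMIT36, of an amino acid transporter family, fell from 23.3 ± 19.7 to 1.99 ± 1.13 CPM (log2 -3.54, SE 0.722), and MAKR6, a membrane-associated kinase regulator, from 28.8 ± 6.09 to 2.31 ± 0.845 CPM (log2 -3.64, SE 0.403). APD7, a protein phosphatase 2C gene, fell by a log2 of -4.10 and BRS1, a carboxypeptidase gene, by -3.51. In both of these the high CO2 library of number 3 was the lowest control. The log2 change of UMAMIT36 was -2.57 without high CO2 replicate 3, and that of AT1G13650 was -5.67 without high light replicate 1.

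**Figure D2:**
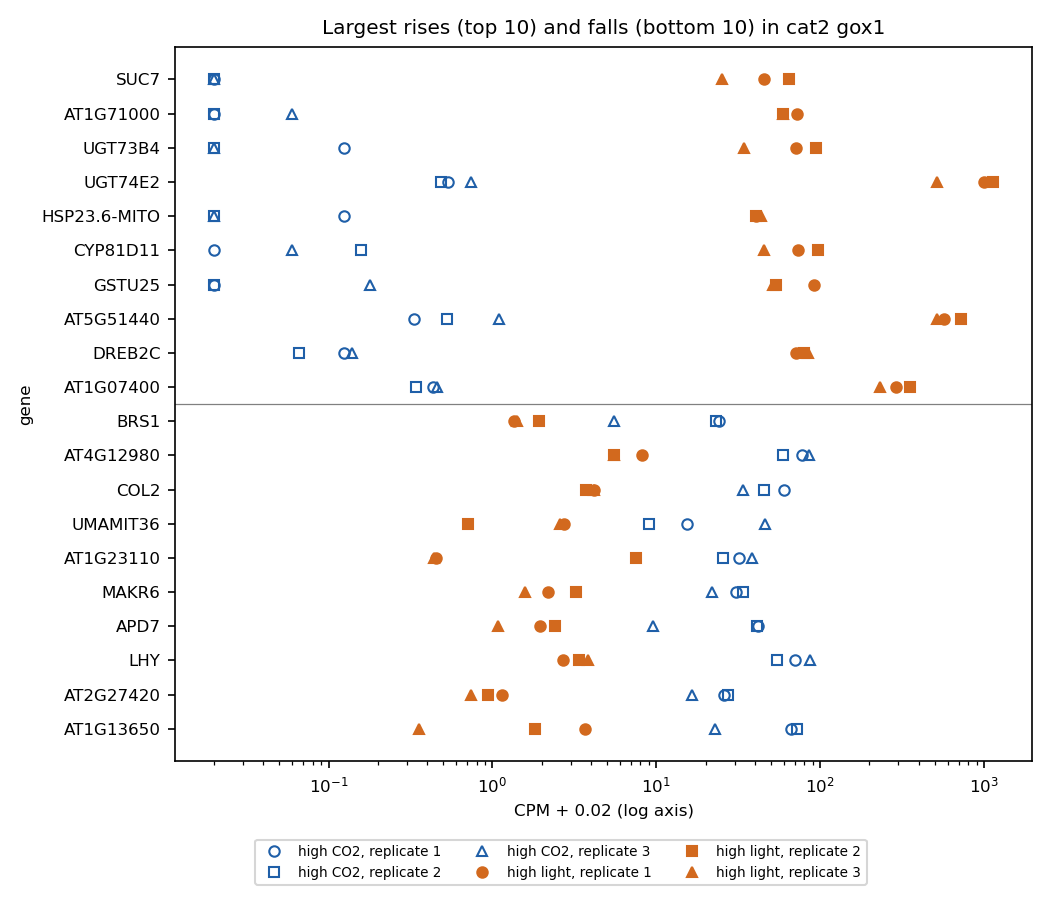
CPM plus 0.02 (log axis) in each of the 6 cat2 gox1 libraries for the 10 largest rises (upper rows) and 10 largest falls (lower rows) among genes that averaged 5 CPM or more and whose conditions did not overlap. Open symbols are high CO2 and filled symbols high light libraries, and SUC7 was at 0 CPM in all 3 high CO2 libraries.

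By gain in counts rather than fold, other genes led. Among the 10 largest gains in CPM were cytosolic chaperones, glutathione transferases and ubiquitin. AT3G09440, a cytosolic heat shock protein of the HSP70 family, had 343, 356 and 306 CPM in high CO2 and 2942, 3751 and 2862 CPM in high light (log2 change 3.25, SE 0.157, adjusted p = 1.25e-07). OPR1, an oxophytodienoate reductase of the old yellow enzyme family, rose from 74.8 ± 5.85 to 2244 ± 608 CPM (log2 4.91, SE 0.226). APX1, the cytosolic ascorbate peroxidase that removes hydrogen peroxide, rose from 915 ± 75.3 to 2867 ± 343 CPM (log2 1.65, SE 0.154), and the polyubiquitin gene UBQ10 from 1619 ± 264 to 3728 ± 375 CPM (log2 1.20, SE 0.171). PEN3, a plasma membrane ABC transporter of defence, rose from 549 ± 188 to 2630.2 ± 569.7 CPM (log2 2.26, SE 0.254). The 10 largest losses were all genes of photosynthesis and chlorophyll. RCA, Rubisco activase, had 14193, 13819.9 and 10486 CPM in high CO2 and 4332, 4155 and 2831 CPM in high light, with number 3 lowest in both conditions (log2 change -1.77, SE 0.245, adjusted p = 0.000144). RBCS1A, a small subunit of Rubisco, fell from 24049.7 ± 6874 to 12421 ± 3269 CPM (log2 change -0.95, SE 0.301, adjusted p = 0.0202), a call that was lost in 3 of 19 alternatives, where the adjusted p was at most 0.0719.

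Kinases and receptors of stress signalling had many more rises than falls. Among hydrogen peroxide and stress kinases, of 32 tested members 24 rose and 2 fell, with a median log2 change of 1.08, against 25.6% rising, 26.5% falling and a median of -0.06 over all genes tested. AGC2-1, also known as OXI1, is a protein kinase needed for responses to hydrogen peroxide. It had 0.155, 0.231 and 0.238 CPM in high CO2 and 54.2, 51.5 and 54.7 CPM in high light, and the high light libraries differed by less than 4 CPM (log2 change 7.95, SE 0.33, adjusted p = 7.13e-08). MPK11, a mitogen-activated protein kinase, rose from 2.31 ± 1.63 to 89.5 ± 19.3 CPM (log2 5.25, SE 0.447) and the kinase kinase kinase gene MAPKKK19 from 0.429 ± 0.488 to 21.1 ± 11.4 CPM (log2 5.51, SE 0.71). MPK20 and CIPK5, a calcineurin B-like interacting kinase, fell by a log2 of -0.58 and -0.93. Log2 changes of MPK11 and MAPKKK19 were 6.03 and 7.14 without high CO2 replicate 3.

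For pattern receptors and immune signalling, of 38 tested members 32 rose and 0 fell, with a median log2 change of 1.42. FRK1, a receptor-like kinase gene induced by bacterial flagellin, had 0.569, 0.646 and 1.63 CPM in high CO2 and 13.6, 12.1 and 16 CPM in high light (log2 change 3.83, SE 0.49, adjusted p = 8.2e-05). The control library of number 3 was the highest of its group, still far below the treated libraries. WAKL10, a wall-associated kinase, rose by a log2 of 6.02 and the leucine-rich repeat receptor kinase LRR XI-23 by 3.30. Among cysteine-rich receptor-like kinases, of 37 tested members 25 rose and 4 fell, with a median log2 change of 1.62. CRK11 had 2.69, 3.23 and 3.85 CPM in high CO2 and 80, 123 and 104 CPM in high light (log2 change 4.96, SE 0.213, adjusted p = 8.6e-08), whereas its family members CRK21 and CRK22 fell without overlap (log2 -1.95, SE 0.207 and log2 -1.64, SE 0.207). These families share sequence, so reads may have been divided among close copies. For FRK1 and WAKL10 the log2 changes were 4.52 and 7.04 when high CO2 replicate 3 was left out.

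The W-box, bound by WRKY factors, had a higher share of hits before genes of these receptor lists than before genes at large, which was not tested. As examples, 3 promoters that hold it are printed. No share was counted for the stress kinase list of AGC2-1, in which the risers MPK11 and MAPKKK19 hold 1 and 0 matches. In the 250 bases before the annotated gene start, TTGACC or TTGACT on either strand occurred in 28.1% of 18953 promoters, in 24 of 37 cysteine-rich receptor-like kinase promoters (64.9%) and in 18 of 38 pattern receptor promoters (47.4%). Sequences are those of the TAIR10.1 assembly from RefSeq, read in the direction of the gene, and capitals mark the W-box in either orientation. The AGC2-1 promoter at chr3:9195084-9195333 on the plus strand holds 3 matches, the CRK11 promoter at chr4:12143859-12144108 on the minus strand 4 and the FRK1 promoter at chr2:8329945-8330194 on the minus strand 2. Among family members that fell, CRK42 holds 1 match and CRK21 and CRK22 hold 0. A match is a description of the letters and not evidence of binding.
AGC2-1: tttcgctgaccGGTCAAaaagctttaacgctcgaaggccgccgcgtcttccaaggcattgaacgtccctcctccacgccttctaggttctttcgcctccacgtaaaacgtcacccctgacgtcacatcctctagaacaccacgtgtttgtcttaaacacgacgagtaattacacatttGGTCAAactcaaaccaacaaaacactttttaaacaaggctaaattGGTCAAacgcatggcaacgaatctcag
CRK11: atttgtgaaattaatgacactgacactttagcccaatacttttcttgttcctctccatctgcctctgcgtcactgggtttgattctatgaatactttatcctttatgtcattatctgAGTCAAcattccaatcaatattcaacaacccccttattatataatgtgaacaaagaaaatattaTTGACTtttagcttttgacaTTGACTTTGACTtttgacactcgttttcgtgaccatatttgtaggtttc
FRK1: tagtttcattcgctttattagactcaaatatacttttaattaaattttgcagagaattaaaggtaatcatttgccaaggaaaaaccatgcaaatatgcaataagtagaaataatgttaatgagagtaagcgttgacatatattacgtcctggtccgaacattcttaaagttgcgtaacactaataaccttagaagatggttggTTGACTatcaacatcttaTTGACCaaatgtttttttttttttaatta

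Calcium sensors of the calmodulin-like family had no called fall, with 8 of 11 tested members higher, 0 lower and a median log2 of 1.77. TCH3, a touch-induced calmodulin-like protein, rose from 57.5 ± 9.55 to 800.3 ± 195 CPM (log2 3.80, SE 0.214) and CML38 from 1.29 ± 0.466 to 19.2 ± 2.94 CPM (log2 3.91, SE 0.291). Peptide signal precursors were divided, with 7 higher and 7 lower of 22, and a median of -0.08, but 4 higher without high CO2 replicate 1. PROPEP3, precursor of a danger peptide, went from 2 to 145 counts over its group (69.8-fold, 95% interval 19 to 582). IDA, the abscission peptide, rose from 0.0683 ± 0.0817 to 2.72 ± 1.05 CPM (log2 5.08, SE 0.562), and STOMAGEN, which promotes stomata, fell from 6 ± 3.17 to 0.684 ± 0.355 CPM (log2 -3.11, SE 0.772). Intracellular disease resistance (NLR) genes had a smaller median: 37 of 114 rose and 16 fell, with a median of 0.19, or 0.34 without high CO2 replicate 3. The falls numbered 10 without high light replicate 1 and 9 with relative log expression scaling. AT1G66090, a TIR-NBS gene, rose from 2.35 ± 0.792 to 123 ± 27 CPM (log2 5.69, SE 0.326) and AT4G19530, of the TIR-NBS-LRR class, fell from 89.8 ± 30.4 to 19.3 ± 3.97 CPM (log2 -2.22, SE 0.341). Without high CO2 replicate 3 the log2 change of IDA was 6.51.

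Transcription factor families linked with stress rose far more often than they fell. Of 59 ERF and DREB factors, 40 rose and 4 fell (median log2 1.32). Of 64 NAC factors, 33 rose and 5 fell (median 0.91; 3 falls without high light replicate 2 or 3), and of 52 WRKY factors 26 and 5 (median 0.81, or 1.31 without high CO2 replicate 3; 1 to 5 falls over the alternatives). All but 1 of the 8 zinc finger genes of the ZAT and AZF type rose, with a median of 3.24, the highest of the 61 lists. R2R3 MYB factors had 13 rises and 18 falls among 57, with a median of -0.16, or 0.04 without high CO2 replicate 3.

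Among the ZAT genes, ZAT11 had 0.0517, 0.139 and 0.119 CPM in high CO2 and 7.43, 10.4 and 9.18 CPM in high light (log2 change 6.34, SE 0.483, adjusted p = 2.15e-06). RHL41, also called ZAT12, a repressor-type factor of oxidative stress, rose from 1.36 ± 0.897 to 70.1 ± 8.11 CPM (log2 5.65, SE 0.485), ZAT6 from 5.64 ± 4.57 to 149 ± 17.8 CPM (log2 4.70, SE 0.631) and STZ, also called ZAT10, from 4.46 ± 2.71 to 99.5 ± 21.5 CPM (log2 4.46, SE 0.459). ZF3 was the exception, with 0.99 ± 0.254 CPM under high CO2 and 0.786 ± 0.167 CPM after high light (log2 change -0.34, SE 0.32, adjusted p = 0.389). WRKY67 had no count in any high CO2 library and 2.41, 5.99 and 2.11 CPM after high light, at least 75.8-fold higher against 3 counts over the control group. WRKY40, a repressor of defence and abscisic acid signalling, had 0.724, 1.43 and 4.64 CPM in high CO2 and 209.9, 281 and 213 CPM in high light (log2 change 6.65, SE 0.627, adjusted p = 9.43e-06). Its number 3 control was the highest of the group, and WRKY27 fell (log2 -1.20, SE 0.174). ERF71, a hypoxia-responsive ethylene response factor, went from 2 to 1488 counts (717-fold, 95% interval 198 to 5923), and RAP2.7, a repressor of flowering, fell from 128 ± 17.3 to 46.2 ± 9.99 CPM (log2 -1.47, SE 0.189). NAC032 rose from 6.31 ± 3.19 to 169.8 ± 10.8 CPM (log2 4.74, SE 0.411). Of the MYB factors, MYB51, a regulator of indolic glucosinolates, rose from 5.88 ± 1.18 to 92.6 ± 16.5 CPM (log2 3.97, SE 0.249), and MYB111, a regulator of flavonols, fell from 4.78 ± 0.945 to 1.12 ± 0.522 CPM (log2 -2.07, SE 0.391). For RHL41, ZAT6, STZ and WRKY40 the log2 changes were 6.30, 5.63, 5.12 and 7.76 when high CO2 replicate 3 was left out.

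Heat shock factors and small heat shock proteins included steep rises. Of 14 heat shock factors, 9 rose and 1 fell (median 1.4; 0.67 to 1.64 over the alternatives). HSFA2, the heat shock factor that amplifies acquired heat tolerance, had 1.19, 0.416 and 0.913 CPM in high CO2 and 103, 197 and 131 CPM in high light (log2 change 7.42, SE 0.387, adjusted p = 1.7e-07). HSF A4A rose from 10 ± 6.46 to 119 ± 18.5 CPM (log2 3.56, SE 0.403) and HSFA8 from 5.96 ± 3.16 to 57.3 ± 11.1 CPM (log2 3.25, SE 0.343). Of 35 HSP20-type proteins, 15 rose and 7 fell. Their median was 0.34, or 0.36 with the members at 0 to 3 counts set to their bounds (-0.06 over all genes). Without both libraries of number 3 it was 0.70. AT5G51440, an HSP20-like chaperone, had 0.31, 0.508 and 1.07 CPM in high CO2 and 572, 728 and 516 CPM in high light (log2 change 9.85, SE 0.525, adjusted p = 1.93e-07), and AT1G07400 rose from 0.391 ± 0.06 to 293 ± 61.1 CPM (log2 9.52, SE 0.436). AT1G20870, of the same domain family, fell from 2.22 ± 0.881 to 0.582 ± 0.0599 CPM (log2 -1.92, SE 0.412). Log2 changes of HSF A4A and AT5G51440 were 4.26 and 10.52 without high CO2 replicate 3.

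The heat shock element was searched as GAANNTTC or TTCNNGAA, both of which read the same on either strand. It occurred in 16.1% of all promoters and in 10 of 35 of the HSP20-type genes (28.6%). The large chaperones had it in 5 of 34 (14.7%) and the pattern receptors in 13 of 38 (34.2%). Lists that did not mainly rise held it too, with 12 of 53 photosystem promoters (22.6%) and 10 of 38 clock promoters (26.3%). Ribosomal protein promoters had 14.4%. These shares were not tested. The promoters of HSFA2, with 3 matches at chr2:11135374-11135623 on the plus strand, and of AT5G51440, with 1 match at chr5:20890913-20891162 on the plus strand, are shown with the matches in capitals, as steep risers of the heat shock lists that hold the element. Other steep risers hold 0 matches, among them HSP23.6-MITO, AT1G07400, HSP17.6II, HSP90.1 and Hop3.
HSFA2: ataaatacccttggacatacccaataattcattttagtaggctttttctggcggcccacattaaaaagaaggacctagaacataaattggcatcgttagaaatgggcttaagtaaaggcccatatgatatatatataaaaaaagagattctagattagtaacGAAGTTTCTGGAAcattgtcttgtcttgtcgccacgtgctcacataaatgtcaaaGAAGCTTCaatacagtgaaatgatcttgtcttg
AT5G51440: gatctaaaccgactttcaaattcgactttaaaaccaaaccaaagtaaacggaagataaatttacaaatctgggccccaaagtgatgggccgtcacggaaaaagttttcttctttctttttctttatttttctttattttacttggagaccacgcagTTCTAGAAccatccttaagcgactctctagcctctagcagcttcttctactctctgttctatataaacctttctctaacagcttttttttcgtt

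Larger chaperones and the proteasome rose across most of their members. Of 34 HSP70, HSP90, HSP60 and HSP101 chaperones, 21 rose and 2 fell (median 1.26). HSP90.1, a cytosolic stress-induced HSP90, had 6.93, 8.36 and 15 CPM in high CO2 and 1039, 1442 and 1249.7 CPM in high light (log2 change 6.94, SE 0.335, adjusted p = 1.24e-07). Without high CO2 replicate 3, 5 fell. Both falls in all libraries were in chloroplast chaperones, Cpn60beta4 (log2 -1.08, SE 0.227) and CLPB3 (log2 -1.16, SE 0.167). Of 24 co-chaperones 12 rose and 4 fell (median 0.32; 2 falls without high CO2 replicate 1 or 2 or high light replicate 3), with Hop3, which links HSP70 to HSP90, rising from 0.737 ± 0.058 to 167 ± 27.9 CPM (log2 7.80, SE 0.366). Proteasome genes moved little each but together: 34 of 40 rose and 1 fell, with a median of 0.77. PA200, a proteasome activator, rose from 79.7 ± 26.7 to 325 ± 31.4 CPM (log2 2.03, SE 0.233) and RPT3, an ATPase of the regulatory particle, from 99.4 ± 18.3 to 365 ± 26.2 CPM (log2 1.87, SE 0.157). Among autophagy genes 12 of 28 rose and 0 fell (median 0.38, or 0.73 without high CO2 replicate 3). ATG8H, of the membrane anchors of the autophagosome, rose from 7.12 ± 1.41 to 35.8 ± 8.69 CPM (log2 2.32, SE 0.241) and NBR1, a cargo receptor, from 175 ± 42.7 to 507 ± 35.6 CPM (log2 1.54, SE 0.183). The rises of autophagy genes numbered 9 to 18 over the alternatives.

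Enzymes that conjugate or reduce reactive compounds had high medians. Of 25 tau glutathione transferases 16 rose and 5 fell (median 2.45; 3 falls without high light replicate 2), of 11 phi glutathione transferases 7 and 2 (median 1.65; 0 to 4 falls over the alternatives), and of 51 UDP-glycosyltransferases 30 and 6 (median 1.47). GSTF7 had 9.83, 11.5 and 32.2 CPM in high CO2 and 651, 1114 and 897 CPM in high light (log2 change 5.63, SE 0.518, adjusted p = 7.94e-06), with the number 3 control above the other controls. GSTU22 went from 1 to 1028 counts (990.2-fold, 95% interval 177 to 39149), while GSTU26 fell from 4.81 ± 1.08 to 1.59 ± 0.272 CPM (log2 -1.59, SE 0.213). UGT73C1 rose from 0.83 ± 0.381 to 149 ± 24.5 CPM (log2 7.45, SE 0.377), and UGT78D1, which adds rhamnose to flavonols, fell from 79.9 ± 11.8 to 35.4 ± 9 CPM (log2 -1.18, SE 0.196). Of 23 enzymes for aldehydes and reactive carbonyls 13 rose and 2 fell (median 0.72). AER, an alkenal reductase that acts on lipid peroxidation products, had 71.2, 74.6 and 64 CPM in high CO2 and 1140.2, 1340.1 and 1236 CPM in high light (log2 change 4.15, SE 0.142, adjusted p = 1.9e-08), and ALDH3F1, an aldehyde dehydrogenase, fell from 135 ± 15.2 to 74.7 ± 15.5 CPM (log2 -0.85, SE 0.166). For GSTF7 the log2 change was 6.40 when high CO2 replicate 3 was left out, and for UGT73C1 it was 8.07 without both libraries of number 3.

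Cytochrome P450 genes, 132 of them tested, had 39 rises and 49 falls (median -0.19, or -0.08 without both libraries of number 3), or 29.5% and 37.1%. CYP710A1, which makes stigmasterol, rose from 0.136 ± 0.193 to 85.5 ± 38.2 CPM (log2 9.11, SE 0.729), and BR6OX2 and BAS1, which make and inactivate brassinosteroids, both fell (log2 -2.08, SE 0.488 and log2 -3.17, SE 0.483). Of 77 ABC transporters 28 rose and 21 fell (median 0.06). ABCG40, an importer of abscisic acid, had 3.67, 3.74 and 10.4 CPM in high CO2 and 604, 599 and 361 CPM in high light (log2 change 6.45, SE 0.528, adjusted p = 3.47e-06), and ABCG22, a transporter tied to stomatal water loss, fell from 85.9 ± 33.5 to 22.2 ± 2.57 CPM (log2 -1.95, SE 0.332). Thioredoxins and glutaredoxins had 8 rises and 4 falls among 24, and 7 falls without high CO2 replicate 3. GRX480, a glutaredoxin that binds TGA factors, rose from 1.08 ± 1.47 to 18 ± 0.62 CPM (log2 3.97, SE 0.741), and the chloroplast redox genes NTRC and TRXF2 fell (log2 -0.90, SE 0.219 and log2 -1.12, SE 0.233). Without high CO2 replicate 3 the log2 changes of CYP710A1, ABCG40 and GRX480 were 11.48, 7.15 and 6.20.

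In peroxisomes, where the glycolate oxidase reaction takes place, more genes rose than fell in both lists examined. Of 25 peroxin genes 12 rose and 5 fell (median 0.26). BIGYIN and FIS1B, which act in organelle fission, rose (log2 1.48, SE 0.191 and log2 1.1, SE 0.219), as did PEX3, of peroxisomal membrane assembly (log2 1.25, SE 0.127). The peroxisomal protease gene LON2 fell (log2 -0.98, SE 0.173). Of 28 genes of beta-oxidation and the glyoxylate cycle 15 rose and 4 fell (median 0.50). ACX1, an acyl-CoA oxidase that itself releases hydrogen peroxide, had 85.3, 81.6 and 109 CPM in high CO2 and 687, 950.0 and 559 CPM in high light (log2 change 2.99, SE 0.255, adjusted p = 4.67e-06), and ACX2 rose from 36.8 ± 2.74 to 135 ± 26.5 CPM (log2 1.88, SE 0.155). PMDH2, the peroxisomal malate dehydrogenase that supplies NADH to photorespiration, fell from 1659.7 ± 45.7 to 851 ± 52.2 CPM (log2 -0.96, SE 0.119).

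Mitochondrial genes had more rises than falls in both lists examined. Of 17 genes of alternative oxidases, alternative NADH dehydrogenases and related stress proteins 10 rose and 3 fell, with a median of 1.53 (1.14 to 2.56 over the alternatives). AOX1D, an alternative oxidase, had 0.0517, 0.185 and 1.63 CPM in high CO2 and 139, 136 and 116 CPM in high light (log2 change 7.60, SE 0.755, adjusted p = 1.4e-05), and 1.63 CPM of its controls came from number 3. BCS1, a stress-induced protein of the outer membrane, rose from 14.3 ± 8.79 to 195 ± 32.7 CPM (log2 3.76, SE 0.436) and DIC2, a dicarboxylate carrier, from 2.93 ± 0.729 to 32 ± 6.4 CPM (log2 3.45, SE 0.254). NDA1, an NADH dehydrogenase regulated by light, fell from 179 ± 11.9 to 96 ± 5.14 CPM (log2 -0.90, SE 0.11). Of 33 genes of the citric acid cycle and mitochondrial carriers 17 rose and 4 fell (median 0.31). PHT3;2, a phosphate carrier, had 0.362, 0.508 and 2.38 CPM in high CO2 and 142, 228 and 159 CPM in high light (log2 change 7.28, SE 0.666, adjusted p = 7.7e-06), and AAC2, an ADP/ATP carrier, rose from 21.5 ± 3.31 to 284 ± 44.9 CPM (log2 3.72, SE 0.224). BOU, a glutamate carrier needed for photorespiratory glycine decarboxylase, fell from 139 ± 3.17 to 55.7 ± 2.54 CPM (log2 -1.31, SE 0.0996). For AOX1D, PHT3;2 and BCS1 the log2 changes were 10.02, 8.65 and 4.41 when high CO2 replicate 3 was left out.

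Nuclear genes of the photosynthetic machinery mostly fell. Of 53 subunits of the photosystems, cytochrome b6f complex, NDH complex and ATP synthase 46 fell and 0 rose (median -0.87). NdhM, a subunit of the NADH dehydrogenase-like complex of thylakoids, fell from 138 ± 7.91 to 39.9 ± 1.73 CPM (log2 -1.79, SE 0.145) and PSBP-2 from 16.1 ± 2.46 to 4.72 ± 1.03 CPM (log2 -1.77, SE 0.191). Mesophyll markers, several of which are photosynthesis genes themselves, fell alongside, as given above. Of 31 chlorophyll synthesis genes 18 fell and 2 rose (median -0.87). The falls numbered 10 without high CO2 replicate 1 or 2 and 11 without high light replicate 3. GUN4, an activator of magnesium chelatase, had 265, 252 and 165 CPM in high CO2 and 54.4, 49.9 and 34.9 CPM in high light (log2 change -2.29, SE 0.278, adjusted p = 5.68e-05). FC1, a ferrochelatase of the competing haem branch, rose instead from 31.2 ± 5.01 to 172 ± 32.4 CPM (log2 2.46, SE 0.169), as did HEMA2 (log2 1.16, SE 0.23), an isoform of the first enzyme of the shared route.

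Carotenoid genes followed, with 22 of 32 lower, 4 higher and a median of -0.59. LUT2, the lycopene epsilon cyclase of lutein synthesis, fell from 110.1 ± 24.6 to 35 ± 4.11 CPM (log2 -1.65, SE 0.215), and BETA-OHASE 2, a carotene hydroxylase of the zeaxanthin branch, rose from 21.1 ± 4.3 to 96.2 ± 16.5 CPM (log2 2.19, SE 0.178). NCED3, which cleaves carotenoids towards abscisic acid, rose from 4.92 ± 1.89 to 15.5 ± 3.77 CPM (log2 1.65, SE 0.423), and NCED4, a cleavage enzyme of carotene, had 404, 392 and 743 CPM in high CO2 and 170.4, 102 and 77.1 CPM in high light (log2 change -2.14, SE 0.353, adjusted p = 0.000472), with number 3 the highest control. Of 87 genes of chloroplast transcription, RNA editing and related assembly 51 fell and 6 rose (median -0.81). CRR21, CRR6 and CRR1, which serve the thylakoid NDH complex, fell by a log2 of -2.16, -1.99 and -1.83. The wider family of 269 pentatricopeptide repeat genes had 57 rises and 66 falls (median 0.14, or 0.01 without high CO2 replicate 3), and the rises numbered 31 without both libraries of number 3. Among chloroplast proteases 16 of 39 fell and 4 rose, but the falls numbered 8, 9 and 10 without high CO2 replicate 1, high CO2 replicate 2 and high light replicate 1. ERD1, a Clp regulatory subunit linked with dehydration and senescence, rose against that trend from 279 ± 143 to 2043 ± 344 CPM (log2 2.87, SE 0.404), and FTSH11 fell (log2 -1.25, SE 0.134). Of 45 starch genes 17 fell and 9 rose (median -0.18), and the falls numbered 10 without high light replicate 1 and 11 without replicate 2. PWD, a dikinase of starch breakdown, rose from 92.3 ± 12.3 to 325 ± 35.7 CPM (log2 1.82, SE 0.152) and the starch synthase gene SS2 fell from 86.4 ± 2.53 to 33.1 ± 6.27 CPM (log2 -1.38, SE 0.145). Without both libraries of number 3 the log2 change of NCED4 was -1.53.

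**Figure D3:**
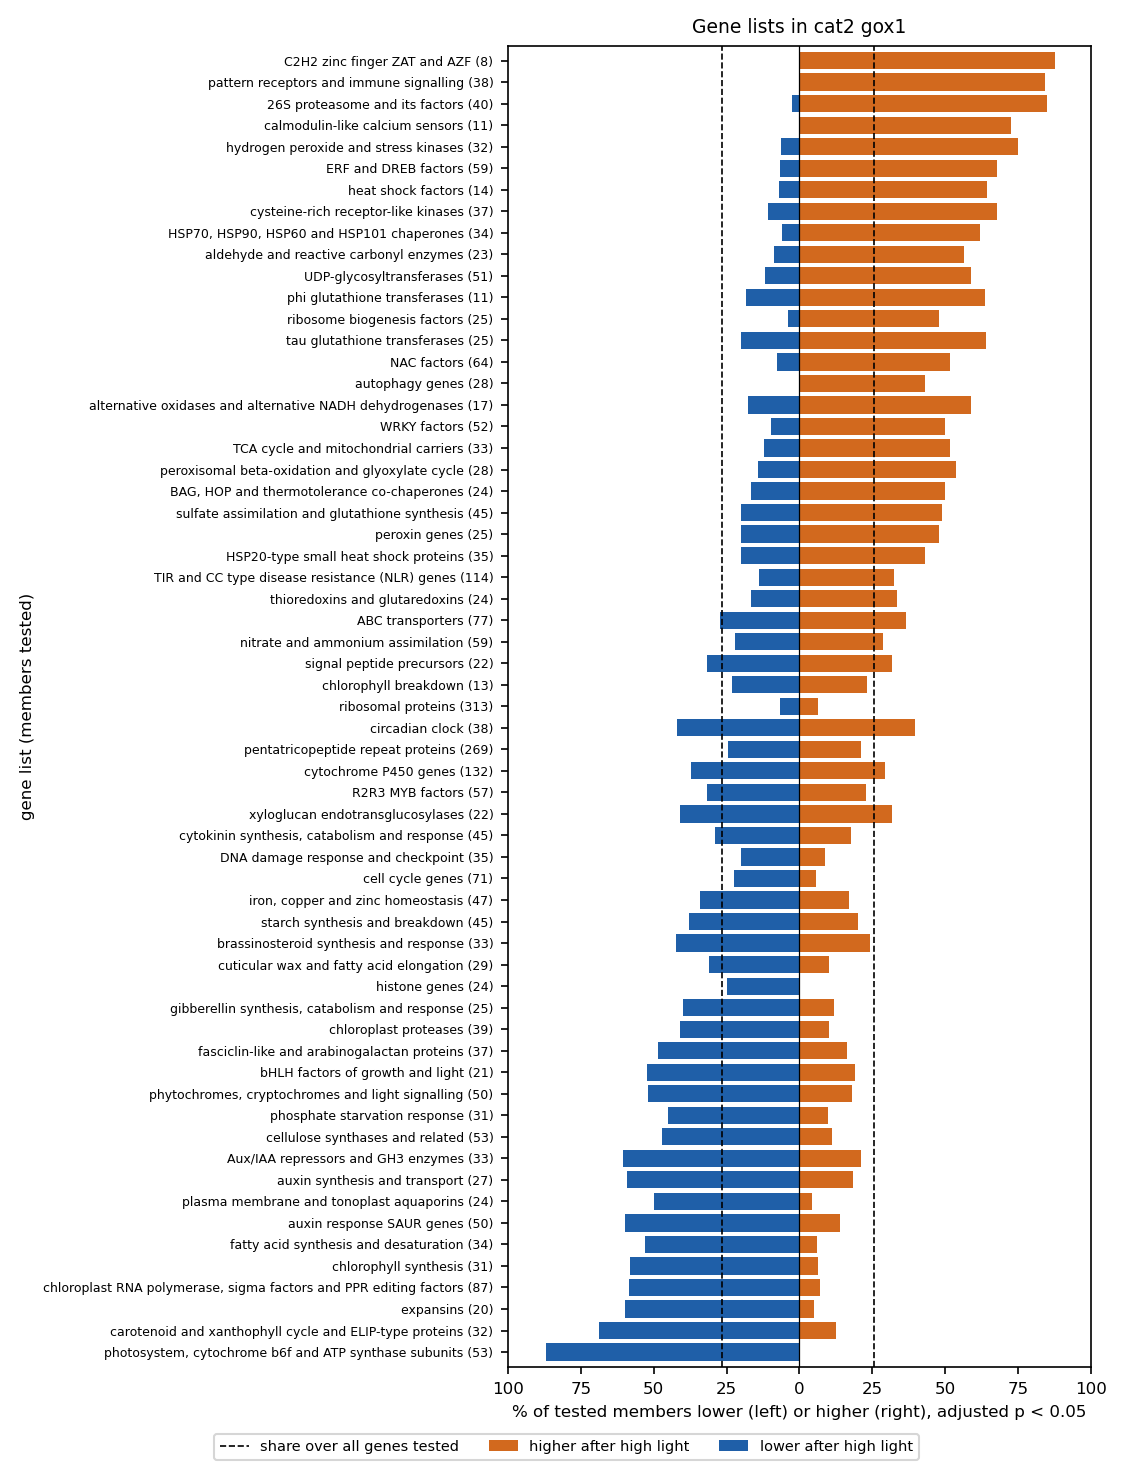
Percent of the tested members of each gene list that were lower (left) or higher (right) after high light in cat2 gox1, with the number tested in brackets. Dashed lines mark the shares over all genes tested, 26.5% lower and 25.6% higher. Lists of zinc finger genes, immune receptors and the proteasome lie at the top, and photosystem, carotenoid and expansin genes at the bottom.

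Nutrient lists differed by element, and the nitrogen list stayed near the background. For nitrogen, 17 rose and 13 fell among 59, with a median of -0.03. Over all genes tested 25.6% rose and 26.5% fell, with a median of -0.06. AMT2, an ammonium transporter, had 12.5, 11.4 and 15.6 CPM in high CO2 and 124, 175 and 129.7 CPM in high light (log2 change 3.44, SE 0.233, adjusted p = 9.99e-07), and GDH2, a glutamate dehydrogenase, rose from 31.3 ± 1.25 to 295 ± 109 CPM (log2 3.23, SE 0.265). NIA1, a nitrate reductase, and ASN2, an asparagine synthetase, fell (log2 -1.95, SE 0.312 and log2 -2.37, SE 0.419). Sulfur and glutathione genes had 22 rises and 9 falls among 45 (median 0.32). APR3, which reduces activated sulfate, had 119, 145 and 139 CPM in high CO2 and 820.4, 1304 and 1019 CPM in high light (log2 change 2.96, SE 0.196, adjusted p = 8.21e-07), SERAT2;1, of cysteine synthesis, rose from 55 ± 6.34 to 333 ± 114 CPM (log2 2.60, SE 0.22), and APS2, an ATP sulfurylase, fell from 114 ± 16 to 36.2 ± 2.35 CPM (log2 -1.65, SE 0.179). Among iron, copper and zinc genes 16 of 47 fell and 8 rose (median -0.44, or -0.26 without high CO2 replicate 3). FRO6, a ferric reductase of leaf cells, had 237, 233 and 211 CPM in high CO2 and 34.1, 36.3 and 17.7 CPM in high light (log2 change -2.95, SE 0.368, adjusted p = 6.95e-05), and its chloroplast relative FRO7 fell from 207 ± 25 to 34.7 ± 2.22 CPM (log2 -2.58, SE 0.225). Of 31 genes of phosphate starvation 14 fell and 3 rose. The falls numbered 23 without high light replicate 2, but 7 and 8 without high light replicates 1 and 3, 9 and 8 without high CO2 replicates 1 and 3, and 9 without high CO2 replicate 1, high CO2 replicate 2 or high light replicate 3 of cat2 gox2. SQD2, of sulfolipid synthesis, fell from 246 ± 63 to 62.3 ± 30.1 CPM (log2 -1.98, SE 0.355), and RNS1, a ribonuclease, rose from 4.74 ± 3.53 to 126 ± 50.1 CPM (log2 4.71, SE 0.687). The log2 change of RNS1 was 5.56 without high CO2 replicate 3.

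Auxin genes mostly fell. Of 50 SAUR genes 30 fell and 7 rose, with a median of -1.85, the lowest of the lists. SAUR20 fell from 10.5 ± 4.27 to 1.01 ± 0.313 CPM (log2 -3.37, SE 0.484) and SAUR22 from 2.64 ± 1.29 to 0.176 ± 0.0522 CPM (log2 -3.86, SE 0.541), while SAUR36, linked with leaf senescence, rose from 0.668 ± 0.493 to 9.5 ± 1.69 CPM (log2 3.77, SE 0.514). SAUR genes are short and similar, so their reads may have been divided among copies. Of 33 Aux/IAA repressors and GH3 enzymes 20 fell and 7 rose (median -0.95). IAA29, an Aux/IAA repressor, had 8.54, 8.86 and 6.39 CPM in high CO2 and 0.086, 0.0922 and 0.0421 CPM in high light, from 5 counts after high light (log2 change -6.66, SE 0.409, adjusted p = 4.98e-07). It was the only gene of the 18967 with a called fall of at least 64-fold. For auxin synthesis and transport, 16 of 27 fell and 5 rose (median -0.86). TAR2 and YUC8, consecutive enzymes of auxin synthesis, fell by a log2 of -2.51 and -2.50, while PILS5, an auxin carrier of the endoplasmic reticulum, rose from 9.41 ± 2.18 to 214 ± 35.1 CPM (log2 4.51, SE 0.262). For SAUR36 the log2 change was 4.61 when high CO2 replicate 3 was left out.

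Among genes of the other growth hormones, single enzymes changed steeply in both directions. Of 25 gibberellin genes 10 fell and 3 rose (median -0.44; 5 rises without high CO2 replicate 3). GA3OX1, the last step to active gibberellin, had 7.35, 7.43 and 6.43 CPM in high CO2 and 0.516, 0.184 and 0.126 CPM in high light (log2 change -4.65, SE 0.507, adjusted p = 2.71e-05), GA20OX1, the step before it, fell from 7.36 ± 1.15 to 0.87 ± 0.149 CPM (log2 -3.07, SE 0.458), and GA2OX6, which inactivates gibberellin, rose from 0.611 ± 0.297 to 18.5 ± 9.57 CPM (log2 4.87, SE 0.465). Brassinosteroid genes had 8 rises and 14 falls among 33. DOGT1, which glucosylates brassinosteroids, rose from 9.87 ± 2.61 to 352 ± 53 CPM (log2 5.15, SE 0.245). BR6OX2 and BAS1, which make and inactivate these hormones, both fell, as given above. Cytokinin genes had 8 and 13 among 45, or 17.8% and 28.9%, against 25.6% and 26.5% of all genes. The cytokinin response factor gene CRF4 rose from 0.535 ± 0.0869 to 12.1 ± 1.56 CPM (log2 4.49, SE 0.237) and IPT3, of cytokinin synthesis, fell from 34.3 ± 6.95 to 11.3 ± 4.02 CPM (log2 -1.61, SE 0.298). Among growth-linked bHLH factors 11 of 21 fell and 4 rose (median -1.0), or 2 without high CO2 replicate 2 or high light replicate 2, with HFR1, a brake on shade growth, falling from 3.35 ± 3.25 to 0.231 ± 0.0835 CPM (log2 -3.82, SE 0.707) and MYC2, of jasmonate signalling, rising from 57.3 ± 19.8 to 132 ± 2.91 CPM (log2 1.20, SE 0.291). The log2 change of HFR1 was -2.64 without high CO2 replicate 2 and that of GA3OX1 -5.46 without high light replicate 1. Without both libraries of number 3 GA2OX6 had 5.73.

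Genes of cell walls, membranes and lipids had more falls than rises. Of 20 expansins, which loosen walls, 12 fell and 1 rose (median -1.61). EXPB1 had 11.1, 10.5 and 4.64 CPM in high CO2 and 1.25, 0.691 and 0.506 CPM in high light (log2 change -3.41, SE 0.689, adjusted p = 0.00174), with number 3 the lowest library in each condition. Of 22 xyloglucan endotransglucosylases 9 fell and 7 rose, with XTH31 falling from 119 ± 3.06 to 16.2 ± 8.58 CPM (log2 -2.88, SE 0.319) and the touch-induced TCH4 rising from 2.99 ± 2.49 to 26.9 ± 14.8 CPM (log2 3.18, SE 0.697). Cellulose synthases and relatives had 25 falls and 6 rises among 53 (median -0.52), and fasciclin-like and arabinogalactan proteins 18 and 6 among 37 (median -0.91). CSLB04 fell from 32.3 ± 2.95 to 4.09 ± 0.933 CPM (log2 -2.98, SE 0.241), and AGP1, an arabinogalactan protein, rose from 5.31 ± 1.45 to 65.6 ± 15.9 CPM (log2 3.63, SE 0.263). Of 24 aquaporins 12 fell and 1 rose (median -0.63), PIP2A among the falls from 1234 ± 155 to 558 ± 125 CPM (log2 -1.14, SE 0.178). Of 34 genes of fatty acid synthesis and desaturation 18 fell and 2 rose (median -0.58). FAD5, a desaturase of chloroplast lipids, fell from 261 ± 109 to 61.4 ± 14.9 CPM (log2 -2.09, SE 0.443). Of 29 wax and elongation genes 9 fell and 3 rose (median -0.37; 1 rise without high CO2 replicate 1 or 2 and 0 without high light replicate 3), with LACS2, of cutin synthesis, among the falls (log2 -1.82, SE 0.181). Without high CO2 replicate 2 the log2 change of TCH4 was 4.07.

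Cell cycle, histone and ribosomal protein genes had few calls. Of 71 cell cycle genes 16 fell and 4 rose (median -0.63), but 25 fell without the high CO2 library of number 3. CYCP2;1 fell from 8.25 ± 2.26 to 1.07 ± 0.276 CPM (log2 -2.93, SE 0.346) and CYCD1;1, a cyclin of the G1 phase, from 16.6 ± 4.01 to 5.24 ± 1.12 CPM (log2 -1.66, SE 0.244). Of 24 histone genes 6 fell and 0 rose, with 12 and 11 falls without high CO2 replicate 3 and high light replicate 1. In the DNA damage list 7 of 35 fell and 3 rose, with 11 falls without high CO2 replicate 3. NAC044, a factor of the DNA damage checkpoint, rose from 0.324 ± 0.206 to 4.4 ± 2.03 CPM (log2 3.76, SE 0.49). Of 313 ribosomal protein genes 20 rose and 21 fell (median -0.22, or -0.53 without high CO2 replicate 3), shares of 6.4% and 6.7% against 25.6% and 26.5% of all genes. The falls numbered 91 without high CO2 replicate 3, and 7, 7, 9 and 6 without high CO2 replicates 1 and 2 and high light replicates 2 and 3. RPL12-C, of the chloroplast ribosome, fell from 338 ± 117 to 121 ± 29.8 CPM (log2 -1.48, SE 0.334). Of 25 ribosome biogenesis factors 12 rose and 1 fell (median 0.56, or 0.37 without high CO2 replicate 3), but 7 rose without high light replicate 3 and 5 without both libraries of number 3. YAO, of early ribosomal RNA processing, rose from 8.23 ± 2.52 to 20.5 ± 4.43 CPM (log2 1.32, SE 0.235). Without high CO2 replicate 2 the log2 change of NAC044 was 4.39.

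Clock genes moved strongly and in both directions. Of 38 members 15 rose and 16 fell (median -0.07, or 0.12 without high CO2 replicate 3). The time of day of each harvest is not part of the labels used here, and elapsed time cannot be told apart from light. FKF1, a blue light receptor of the afternoon, had 0.155, 0.0462 and 0.476 CPM in high CO2 and 53, 35.9 and 49.3 CPM in high light (log2 change 7.56, SE 0.477, adjusted p = 5.93e-07), COR27, a cold-regulated repressor of the evening, 0.0517, 0.139 and 0.159 CPM in high CO2 and 24.8, 11.5 and 29.6 CPM in high light (log2 change 7.44, SE 0.553, adjusted p = 1.81e-06), and PRR5, a pseudo-response regulator of the afternoon, 1.35, 1.2 and 1.75 CPM in high CO2 and 48.2, 34.4 and 45.1 CPM in high light (log2 change 4.88, SE 0.313, adjusted p = 6.9e-07). None of them overlapped between the conditions. LNK3, of the morning coactivator family, fell from 81.9 ± 4.38 to 14.2 ± 0.812 CPM (log2 -2.53, SE 0.202). Of 50 genes of light signalling 26 fell and 9 rose (median -0.48). COL2, a CONSTANS-like gene of the morning, had 60.4, 45.7 and 33.6 CPM in high CO2 and 4.17, 3.69 and 4.13 CPM in high light (log2 change -3.54, SE 0.423, adjusted p = 5.11e-05), and PHYD, a red light receptor, rose from 13.8 ± 2.08 to 99.9 ± 22.8 CPM (log2 2.85, SE 0.191). Without high CO2 replicate 3 the log2 change of FKF1 was 8.82.

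The evening element AAAATATCT, to which morning factors of the LHY and CCA1 type bind, was in 2.53% of all promoters and in 10 of 38 clock promoters (26.3%). Those of FKF1 at chr1:25508389-25508638 on the plus strand and PRR5 at chr5:8358547-8358796 on the minus strand, clock genes with steep rises, are shown with the element in capitals, and each holds 1 copy. COL2, given above among the falls, also holds 1 copy, while LNK3, another fall, holds 0. The shares were not tested.
FKF1: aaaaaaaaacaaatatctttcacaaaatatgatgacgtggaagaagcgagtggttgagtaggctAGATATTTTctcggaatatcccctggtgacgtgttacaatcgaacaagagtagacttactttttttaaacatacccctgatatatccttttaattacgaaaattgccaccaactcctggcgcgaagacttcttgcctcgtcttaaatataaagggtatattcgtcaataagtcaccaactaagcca
PRR5: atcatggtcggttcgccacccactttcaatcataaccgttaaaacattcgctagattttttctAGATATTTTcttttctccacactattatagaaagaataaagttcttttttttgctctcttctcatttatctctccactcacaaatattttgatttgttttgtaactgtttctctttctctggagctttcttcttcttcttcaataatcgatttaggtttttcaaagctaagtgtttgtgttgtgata

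In all, 10 motifs were counted on both strands of the 250 bases before the gene. The W-box was in 198 of 412 promoters of genes at least 16-fold higher (48.1%), in 36.8% of those 2-fold to 16-fold higher, in 26.7% of uncalled genes and in 23.2% of those at least 4-fold lower. The TGACG element of bZIP factors was in 27.7% of the steepest risers against 19.4% of all, and the heat shock element in 22.3% against 16.1%. The site II element, searched as TGGGCC or TGGGCT, was scarcer at both ends, in 13.3% of the steepest risers and 9.24% of the deepest fallers against 22.9% of all. It was present before 20 of 40 proteasome genes, 15 of 25 ribosome biogenesis genes and 56.5% of ribosomal protein genes. Of the other motifs, the G-box CACGTG was in 7.47% of all promoters, the DRE core (ACCGAC or GCCGAC) in 8.09%, the calmodulin-binding element (CGCGTT or CGCGTG) in 5.29%, the telo-box AAACCCTA in 3.65% and the I-box core GATAAG in 12.3%. The classes were formed from the response itself and carry no test, and base composition was not matched between them.

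**Figure D4:**
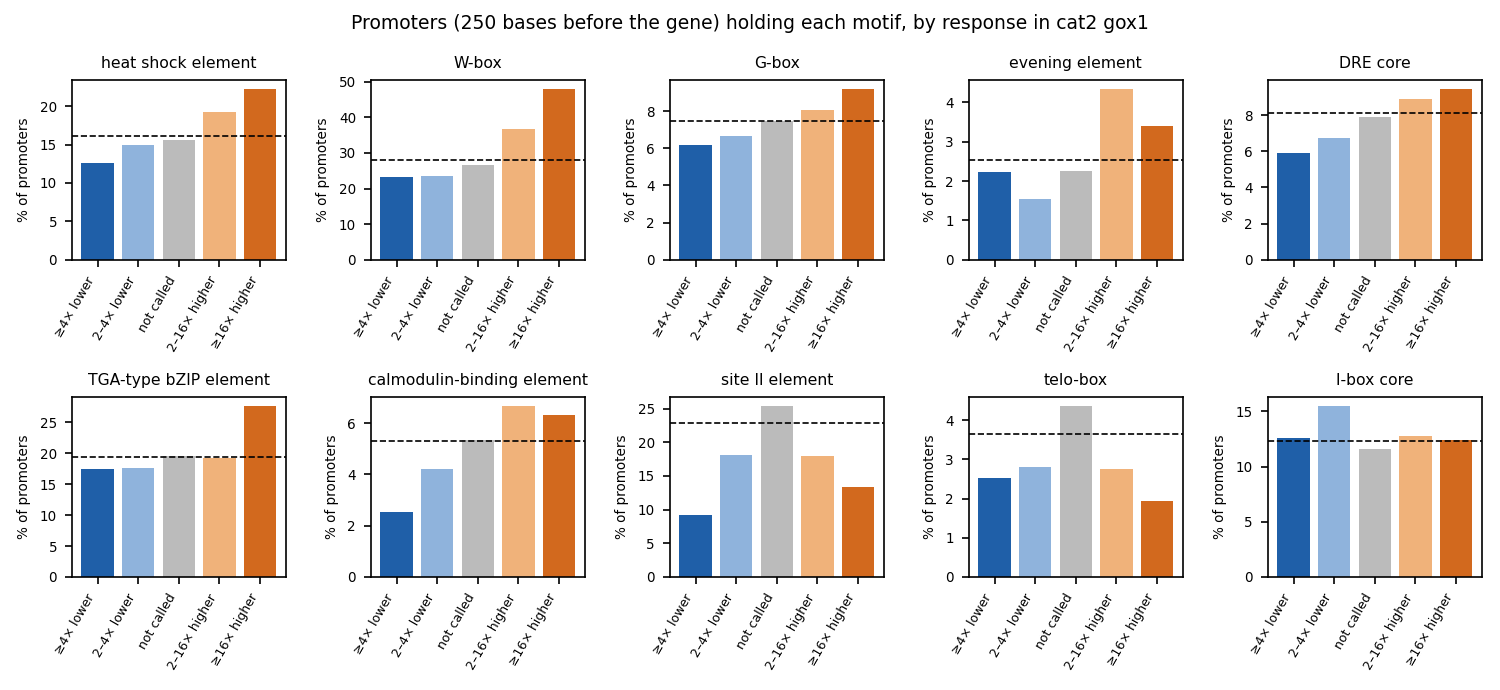
Percent of promoters (250 bases before the gene) that hold each of 10 motifs, for genes grouped by their response in cat2 gox1, with a dashed line at the share of all 18953 promoters. Called genes that changed less than 2-fold are not drawn. The W-box bars rise from 23.2% in the deepest fallers to 48.1% in the steepest risers, and the site II bars are highest in uncalled genes.

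The response was then set against that of cat2 gox2 by a test of the difference itself. It passed for 197 genes (1.04%), of which 189 (0.996%) responded lower in cat2 gox1 and 8 (0.0422%) higher. Of the 189 genes, 140 rose in both lines and less so in cat2 gox1, 33 rose in cat2 gox2 and were not called in cat2 gox1, 6 rose in cat2 gox2 and fell in cat2 gox1, 8 fell in cat2 gox1 and were not called in cat2 gox2, and 2 fell in both. These 2 lines share no library, but only 3 libraries stand behind each group, and the count of differences was 88 to 195 when any single library was left out. The HSP20 list held 5 of the 189 among its 35 tested members, the large chaperones 4 of 34 and the co-chaperones 5 of 24. WRKY factors held 5 of 52.

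Hsp70b, a cytosolic heat shock protein, had 4.97, 5.17 and 6.55 CPM in high CO2 and 12.5, 13.3 and 16.8 CPM in high light in cat2 gox1 and 4.21, 3.93 and 5.99 CPM in high CO2 and 182, 668 and 365 CPM in high light in cat2 gox2. The treated libraries of the lines lay far apart (log2 difference -5.07, SE 0.558, adjusted p = 0.00162), while the rise within cat2 gox1 passed too (log2 change 1.35, SE 0.383, adjusted p = 0.0121). EGY3, a chloroplast protein induced by heat, had 6.47, 5.45 and 8.3 CPM in high CO2 and 10.9, 10.7 and 10.6 CPM in high light in cat2 gox1 and 5.73, 4.82 and 6.19 CPM in high CO2 and 90.2, 231 and 181 CPM in high light in cat2 gox2 (log2 difference -4.24, SE 0.417, adjusted p = 0.000958). Its own difference in cat2 gox1 did not pass (adjusted p = 0.0708, and 0.00733 to 0.202 over the alternatives, of which 5 of 19 passed). AT1G54050, an HSP20-like gene, changed by 1.20 on the log2 scale in cat2 gox1 against 4.72 in cat2 gox2 (log2 difference -3.51, SE 0.459, adjusted p = 0.00479), and AT1G59860, another, 4.98 and 8.39 (log2 difference -3.41, SE 0.374, adjusted p = 0.00162). HSP17.6II rose by 7.11 and 10.54 (log2 difference -3.44, SE 0.674, adjusted p = 0.0409), a difference lost in 11 of 18 alternatives.

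The co-chaperone genes Fes1A and ATFKBP65 rose in both lines and less in cat2 gox1 (log2 difference -1.49, SE 0.221, adjusted p = 0.0103, and log2 difference -1.53, SE 0.228, adjusted p = 0.0103). Outside heat shock, SDR5, a short-chain dehydrogenase gene, went up by 3.82 and 7.59 (log2 difference -3.78, SE 0.476, adjusted p = 0.00385; adjusted p = 0.0661 without both cat2 gox1 libraries of number 3). The calcium sensor gene CML37 went up by 5.74 and 8.29 (log2 difference -2.55, SE 0.495, adjusted p = 0.0403; lost in 10 of 18 alternatives), CIPK22 by 2.22 and 5.57 (log2 difference -3.35, SE 0.501, adjusted p = 0.0103), and the phosphatase gene PP2C5 by 3.34 and 6.64 (log2 difference -3.30, SE 0.393, adjusted p = 0.00278). AT5G42830, an acyltransferase gene, went up by 3.97 and 7.55 (log2 difference -3.58, SE 0.299, adjusted p = 0.000657). RVE1, a clock-linked regulator of auxin, had 7.24, 5.03 and 6.03 CPM in high CO2 and 0.602, 0.737 and 0.716 CPM in high light in cat2 gox1 and 4.94, 6.15 and 5.45 CPM in high CO2 and 5.79, 9.14 and 6.45 CPM in high light in cat2 gox2. It fell in the first without overlap and had no call in the second (log2 difference -3.51, SE 0.308, adjusted p = 0.000809). BMY3, a chloroplast beta-amylase, changed by a log2 of -2.03 and -0.18 (log2 difference -1.85, SE 0.272, adjusted p = 0.00993), and AT2G27420, a cysteine protease gene, by -4.65 and -2.24 (log2 difference -2.42, SE 0.481, adjusted p = 0.0429; lost in 11 of 18). For CML37 in cat2 gox1 the log2 change was 6.45 when high CO2 replicate 3 was left out.

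The few stronger responses of cat2 gox1 included a metal transporter. NRAMP3, which exports iron and manganese from the vacuole, had 7.24, 7.85 and 6.75 CPM in high CO2 and 39.2, 45.4 and 36.9 CPM in high light in cat2 gox1 and 10.1, 8.6 and 8.79 CPM in high CO2 and 23.3, 22.1 and 23.2 CPM in high light in cat2 gox2. Its rise was larger in cat2 gox1 (log2 difference 1.16, SE 0.16, adjusted p = 0.00713) in the fit of all libraries and in all 18 alternatives. AT3G04000, a short-chain dehydrogenase-like gene, rose by 4.45 and 2.57 (log2 difference 1.88, SE 0.333, adjusted p = 0.0251), with the call lost in 6 of 18. IQD22, a calmodulin-binding protein gene, changed by 0.68 and -0.72 (log2 difference 1.39, SE 0.202, adjusted p = 0.00909). D14, the strigolactone receptor gene, changed by 0.65 and -0.19 (log2 difference 0.84, SE 0.172, adjusted p = 0.0463), a difference lost in 15 of 18 alternatives. ATBRXL2 and AT3G27870 were lost in 11 and 12, and MYB33 in 14.

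**Figure D5:**
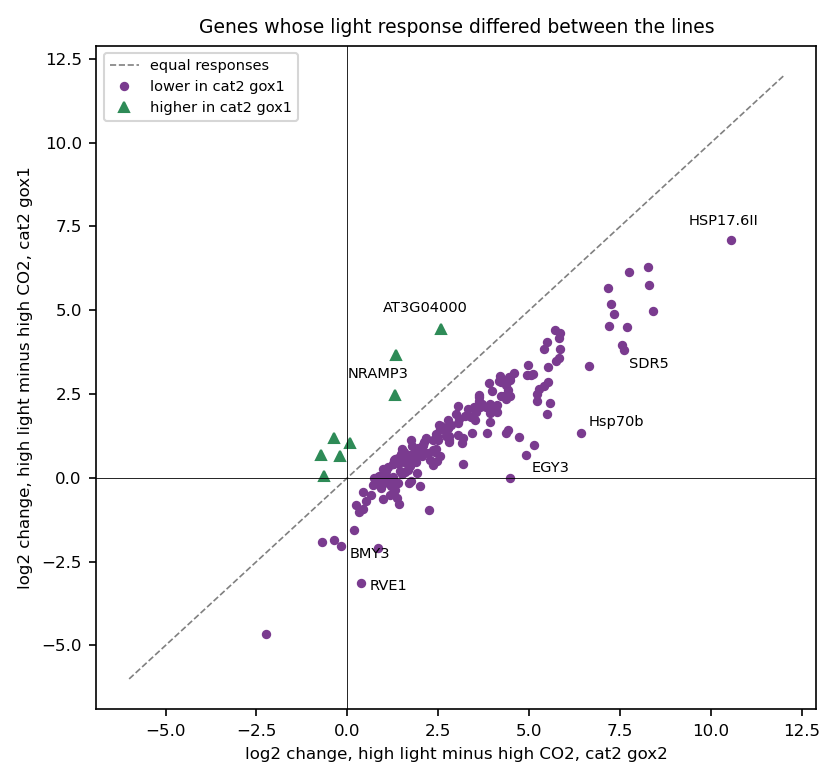
Log2 change after high light in cat2 gox2 (x axis) and cat2 gox1 (y axis) for the 197 genes whose responses differed between the lines, with a dashed line at equal responses. Most points lie below the line on the right, where both lines rose, for example Hsp70b at 6.42 and 1.35, and 8 points lie above it.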

How the data were processed

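The deposited table held raw counts of reads per gene, whole numbers that the authors had neither normalized nor filtered. The submitters' processing notes name Trim Galore 0.3.3, TopHat2 2.1.0, featureCounts of Subread 1.4.6 and the TAIR10 build. Neither the strand setting nor the handling of multi-mapped reads is given in the sources used here. Organellar loci (279) were at 0 in all libraries, and 2 entries that name no gene were left out. Of 33602 loci, 32835 matched the TAIR10.1 reference, which gave names, products and promoters.

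The analysis used edgeR 4.0.16 in R 4.3.3. Low counts were filtered with filterByExpr over the 4 groups, which left 18967 genes with 99.96% of counts. Libraries were scaled by TMM and all 12 libraries entered 1 model with a mean per group, for a shared estimate of the spread (biological coefficient of variation 0.211). Two-sided quasi-likelihood tests were adjusted by Benjamini-Hochberg over all genes at 0.05. The SE is the log2 change divided by the square root of F. Values after ± are SDs of 3 libraries, and p-values measure the spread between pools of 15 plants. Total counts ran from 19571516 to 25314811. Folds against 0 counts are bounds against 3 counts over the group, and those from 1 to 3 counts have exact 95% binomial intervals on scaled library sizes. Bounds and intervals cover counting error only. Scripts were tested on simulated data.

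The comparison, the 61 gene lists and the naming rule were chosen with earlier results of these data known. Lists come from textbook knowledge and gene families, and 2790 of 3447 members were tested. Named genes are the mutated genes, the 10 largest rises and falls by log2 (mean of at least 5 CPM, no overlap) and by CPM, up to 3 members per list and direction, and the 10 largest differences between the lines in each direction. Alternatives were DESeq2 1.42.0, relative log expression factors, no filter or a mean of at least 1 CPM, the cat2 gox1 libraries alone, a replicate block, each library left out in turn, and both cat2 gox1 libraries of number 3 left out. A few named genes and 1 promoter are not reported here.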

Additional observations from a re-analysis of the deposited data

Results flagged for a closer look

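Responses to high light that differed between cat2 gox1 and cat2 gox2, by the test of the difference itself, were looked at again for the 22 genes named above. Each value is the log2 response of cat2 gox1 minus that of cat2 gox2. The response of cat2 gox1 was lower by most in the heat shock gene Hsp70b (-5.07), followed by the chloroplast protein gene EGY3 (-4.24), SDR5 (-3.78) and the acyltransferase gene AT5G42830 (-3.58). The HSP20-type genes AT1G54050, HSP17.6II and AT1G59860 had -3.51, -3.44 and -3.41, and the clock-linked RVE1 -3.51. The signalling genes CIPK22, PP2C5 and CML37 had -3.35, -3.30 and -2.55. AT2G27420 stood at -2.42 and the amylase gene BMY3 at -1.85. The co-chaperone genes ATFKBP65 and Fes1A had -1.53 and -1.49.

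On the other side were the dehydrogenase-like gene AT3G04000 at 1.88, ATBRXL2 at 1.54, IQD22 at 1.39 and the vacuolar metal exporter gene NRAMP3 at 1.16. The membrane ATPase gene AT3G27870 had 0.97, the strigolactone receptor gene D14 0.84 and MYB33 0.71. Of these genes, HSP17.6II, CML37, AT2G27420, AT3G04000, ATBRXL2, AT3G27870, D14 and MYB33 lost the call in 6 to 15 of 18 alternatives and SDR5 in 1. The cause of these differences was not tested.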

How the results depend on the processing

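The number of genes called after high light in cat2 gox1 was 9880, and it stayed within 1.5 times of that under all alternatives run, from 8203 without high CO2 replicate 1 to 11102 with a replicate block. At least 2-fold calls numbered 4958 and ran from 4519 to 5725. No named gene reversed its direction, and of the calls of the light response itself in cat2 gox1, those of RBCS1A and AT1G54050 were lost, in 3 and 1 of 19 alternatives. The number of genes whose response differed between the lines was less stable. It was 197 in the fit of all libraries and 538 with DESeq2, 105 without both cat2 gox1 libraries of number 3, and 88 to 195 when single libraries were left out. The cause of these moves was not tested.

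Whether replicate numbers pair the conditions was not settled by the check used, since its values were mixed. Deviations of same-numbered cat2 gox1 libraries correlated at 0.3, 0.07 and 0.33, and those of cat2 gox2 at -0.19, 0.52 and 0.48. In both lines number 3 correlated most with its own number. High CO2 number 2 of cat2 gox1 correlated more with high light number 1 (0.27), and number 1 of cat2 gox2 with number 2 (0.4). Between the lines, same-numbered high CO2 libraries correlated at 0.54, 0.57 and 0.8, each highest with its own number, and high light libraries at -0.24, 0.07 and 0.26. With a replicate block 11102 genes were called, 5180 of them at least 2-fold, and 285 differed between the lines. Scaling by relative log expression moved the median of all genes from -0.06 to -0.009. Of 2318 counts of list members, 116 moved by more than 1.5 times. At 19571516 to 25314811 counts a library, genes at 0 to 3 counts in a group allow only bounds or wide intervals.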
